A study of Mus musculus with 2 samples.

Results

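The 10 enzymes described here carry long-chain fatty acids through mitochondrial β-oxidation and were followed by gene symbol in single nuclei of mouse interscapular brown adipose tissue (BAT). They are 10 of the 32285 genes in the deposited count matrices, and each of the 10 symbols was found once. Nuclei were sequenced singly in droplets, and RNA molecules were told apart by a barcode of their own, the unique molecular identifier (UMI). The WT library came from 8-week-old male Srsf1 flox/flox littermates without Cre, and the KO library from 8-week-old male Adipoq-Cre; Srsf1 flox/flox mice. Both carried the floxed alleles of Srsf1, which encodes a splicing factor, and the Adipoq promoter drives Cre in mature adipocytes. There was 1 library per genotype, and how many mice went into each is not given in the sources used here. No test or p-value could therefore be computed, and genotype and library cannot be told apart. All intervals are 95% intervals for counting error only.

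In β-oxidation, a long-chain fatty acid is first joined to coenzyme A by an acyl-CoA synthetase. CPT1 on the outer mitochondrial membrane then hands the acyl group to carnitine, and CPT2 on the inner membrane returns it to coenzyme A inside the matrix. Acyl-CoA dehydrogenases start each round of the spiral, and the trifunctional protein finishes the round for long chains, so that acetyl-CoA and electrons for the respiratory chain are released. Brown adipocytes are known for burning fatty acids in this way to make heat through the uncoupling protein UCP1. CPT1 has a liver form, encoded by Cpt1a, and a muscle form, encoded by Cpt1b, which is the main form of brown fat. Malonyl-CoA, the first product of fatty acid synthesis, inhibits CPT1, and the muscle form is the more sensitive to it.

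The WT library held 93102814 UMIs in 12846 barcodes and the KO library 80090208 UMIs in 11495 barcodes, and 52 barcodes occurred in both. The median share of mitochondrially encoded UMIs was 1.10% in WT and 0.0491% in KO, so the libraries differ in more than the targeted gene. Each nucleus took a class from the sums of its marker genes, none of which is one of the 10 enzymes, and a nucleus with low or mixed sums took none. Adipocyte nuclei numbered 5070 in WT and 1907 in KO, with medians of 7022 and 6299 UMIs. Endothelial nuclei numbered 2015 and 983, with medians of 2296 and 2170 UMIs. Adipose stem and progenitor cell (ASPC) nuclei numbered 279 and 1684, immune nuclei 576 and 3669, and mural nuclei 312 and 190. No class could be given to 34.7% of the kept WT nuclei and 25.6% of the kept KO nuclei. The adipocyte class had 8759 adipocyte-marker UMIs per 1000000 in WT and 9434 in KO, against 3261 and 2328 in endothelial nuclei. Of these endothelial values, Pparg alone made up 2482 in WT and 1847 in KO. In the clustering of all nuclei, 0.0986% of the WT adipocyte nuclei lay in the main cluster of the KO adipocyte nuclei, and 1.14% of the WT endothelial nuclei in that of KO, so the compared nuclei of these classes came from different clusters. Srsf1 itself was at 181 UMIs per 1000000 in WT and 61.3 in KO adipocyte nuclei, a log2 ratio of −1.56 (−1.66 to −1.47). It was also lower in KO endothelial (−0.61), mural (−0.61), immune (−0.57) and ASPC (−0.44) nuclei, with intervals below 0. In the few Schwann (−0.36) and muscle (0.13) nuclei the intervals hold 0. Relative to the endothelial level of the same library, the adipocyte log2 ratio was −0.95 (−1.19 to −0.71). The lower Srsf1 level was thus not limited to adipocyte nuclei, and the cause was not tested. Which exons Cre removes is not given in the sources used here.

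The genes of the trifunctional protein stand head to head. On GRCm38, Hadha (α subunit) lies on the minus strand of chromosome 5 at 30118304 to 30155162, and Hadhb (β subunit) on the plus strand at 30155248 to 30184593. The 85 bases between the gene starts, at chr5:30155163-30155247, are shown on the plus strand because this pair differed between WT and KO adipocyte nuclei by nearly the same factor. Such a factor was not particular to the pair, since Cpt1b, on chromosome 15, had a log2 ratio between theirs, −0.945. Cpt1a lies on chromosome 19 at 3322334 to 3385733 and was the member that went against the others. For comparison, 234 bases before the start of an annotated exon, at chr19:3323051-3323284 on the plus strand, are shown. These bases lie inside the annotated span of Cpt1a, unlike the stretch between Hadha and Hadhb. Capitals mark matches to GGGCGG on either strand, the GC box that SP1-family factors bind.

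Hadha-Hadhb: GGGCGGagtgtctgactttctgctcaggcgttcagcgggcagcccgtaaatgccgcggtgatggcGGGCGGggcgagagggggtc
Cpt1a: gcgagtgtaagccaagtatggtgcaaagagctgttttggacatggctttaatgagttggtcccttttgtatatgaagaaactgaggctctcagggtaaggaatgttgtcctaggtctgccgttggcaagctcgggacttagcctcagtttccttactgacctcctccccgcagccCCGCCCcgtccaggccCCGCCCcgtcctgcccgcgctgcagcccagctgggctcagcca

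Both stretches held 2 matches. The sequences are from RefSeq on GRCm38.p6, in which 9 of the 10 genes had a promoter window of 300 bases and Acsl1 had 2. GGGCGG was found in 6 of these 10 windows and in 35.7% of all 32851 windows of the same length. The windows of Hadha and Hadhb share 228 bases, and the only match of the Hadha window is also a match of the Hadhb window. The repeat that PPAR receptors bind, 2 copies of AGGTCA with 1 base between them, was found in none of the 10 windows and in 0.0396% of all windows. TCAAGGTCA, bound by the estrogen-related receptors, and TGACGTCA, bound by CREB, were also in none of them, against 0.423% and 1.79% of all windows. A missing match says only that these letters are not in these windows.

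The first question was how much of each enzyme's RNA the adipocyte nuclei held in WT and KO. Of the 10 enzymes, 9 were lower in the adipocyte nuclei of KO and Cpt1a alone was higher. Levels are UMIs per 1000000 UMIs of a class (CPM), and they are compared between libraries and classes but not between genes.

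At the entry step, Cpt1a was at 9.13 CPM in WT (8.29 to 10.0, 437 UMIs) and 41.1 in KO (37.9 to 44.5, 613 UMIs), 4.50-fold higher. Cpt1b, on chromosome 15 at 89416405 to 89425863, was at 375 CPM in WT (370 to 381) and 195 in KO (188 to 202), 1.93-fold lower. The 2 forms of CPT1 thus differed between the libraries in opposite directions. Cpt2, on chromosome 4 at 107903981 to 107923610, was at 75.6 CPM in WT and 56.3 in KO, a log2 ratio of −0.43 (−0.54 to −0.32). Among the members only Acsl1 had a ratio closer to 0.

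The acyl-CoA dehydrogenases differ in the chain length they act on. Acadm, the medium-chain enzyme, on chromosome 3 at 153922357 to 153944632, was at 544 CPM in WT and 310 in KO, a log2 ratio of −0.81 (−0.85 to −0.76). Acadl, the long-chain enzyme, on chromosome 1 at 66830839 to 66863277, was at 484 and 286 CPM, a log2 ratio of −0.76 (−0.81 to −0.71). Acadvl, the very-long-chain enzyme that sits at the inner membrane and takes the longest chains, was at 90.2 CPM in WT and 25.8 in KO. Its log2 ratio of −1.80 (−1.96 to −1.65) was well below those of the other dehydrogenases, and the intervals do not meet. Acadvl lies on chromosome 11 at 70010183 to 70015411 and overlaps Dvl2 on the other strand by 2119 bases. Whether the counting used the strand is not stated, so a share of its UMIs could belong to Dvl2, which was at 18.0 and 8.78 CPM.

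The subunits of the trifunctional protein differed between the libraries by nearly the same factor. Hadha was at 640 CPM in WT (632 to 647) and 323 in KO (314 to 332), a log2 ratio of −0.99 (−1.03 to −0.94). Hadhb was at 597 CPM in WT (590 to 604) and 311 in KO (302 to 320), a log2 ratio of −0.94 (−0.99 to −0.90). These intervals overlap.

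The acyl-CoA synthetases differed from each other. Acsl1, the main synthetase of adipocytes, on chromosome 8 at 46471037 to 46536051, was at 3405 CPM in WT and 2648 in KO, a log2 ratio of −0.36 (−0.38 to −0.35). Acsl5, on chromosome 19 at 55251938 to 55297720, was at 79.4 CPM in WT and 22.8 in KO, a log2 ratio of −1.80 (−1.97 to −1.64). Acsl5 is a synthetase of the mitochondria and the endoplasmic reticulum that is known for feeding fatty acids into storage as well as oxidation. It overlaps Zdhhc6 on the other strand by 26430 bases, and Zdhhc6 was at 73.1 and 36.4 CPM, a log2 ratio of −1.01 (−1.14 to −0.87).

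Acadvl and Acsl5 were thus the 2 of 10 members at least 2-fold lower in KO, and so were 18.8% of the 15374 genes that had 50 UMIs or more over both libraries in this class. Cpt1a was the 1 member at least 2-fold higher, beside 17.3% of all genes. The count of 2 is near the background, while the count of 9 lower at any size stands beside 48.9% of all genes. The median log2 ratio was −0.87 over the members and 0.03 over all genes. Endothelial-marker UMIs in adipocyte nuclei were 644 CPM in WT and 132 in KO, and immune-marker UMIs 211 and 390. The part of these in the ratios was not tested.

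**Figure D1:**
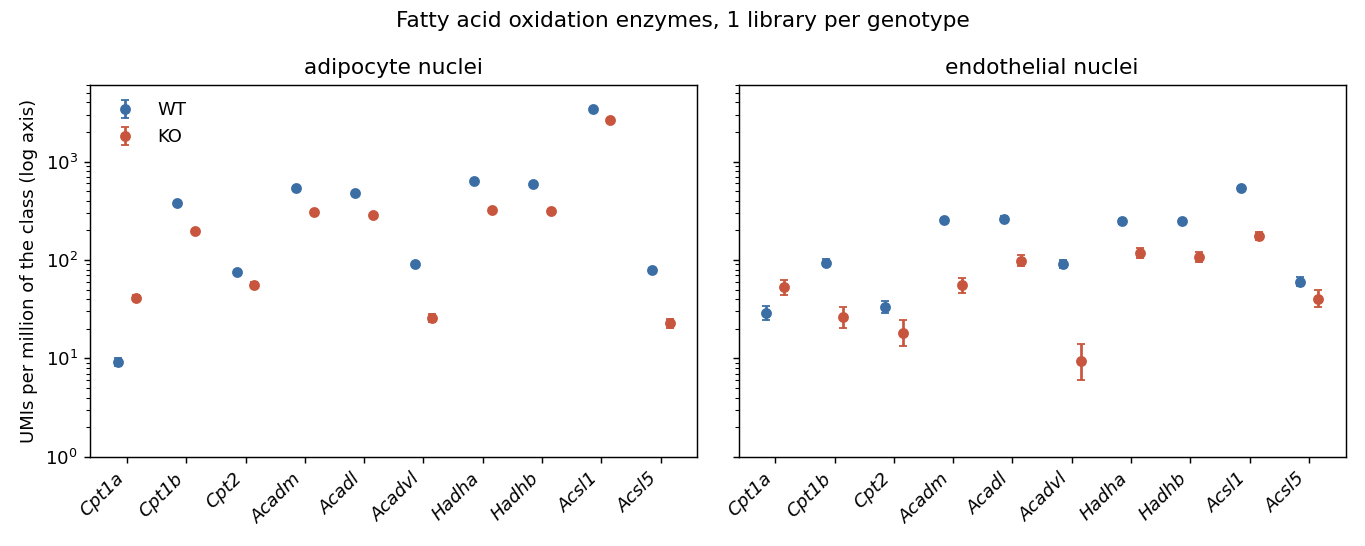
Level of each enzyme in CPM (log axis) in adipocyte (left) and endothelial (right) nuclei, WT blue and KO red; bars are exact 95% Poisson intervals and each point is 1 library. Cpt1a is the 1 gene with KO above WT in both panels, and the other 9 are lower in KO in both.

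The share of nuclei with at least 1 UMI followed the levels. After each nucleus was thinned to 1000 UMIs, which left out 120 WT and 20 KO adipocyte nuclei, Acadm was seen in 43.2% of the adipocyte nuclei of WT and in 25.0% of those of KO. Before thinning its shares were 91.4% and 72.0%. In endothelial nuclei, taken as the class for background, the thinned shares of Acadm were 23.6% and 4.60%, and Hadha showed the same picture with 46.2% and 24.9% in adipocyte against 22.4% and 9.30% in endothelial nuclei. The level in endothelial nuclei was therefore not negligible and was itself lower in KO. For Cpt1a, the thinned shares were 0.869% and 3.71% in adipocyte nuclei and 2.35% and 5.03% in endothelial nuclei, so that at equal depth the adipocyte share was below the endothelial share in each library. Before thinning they were 6.57% and 20.9% in adipocyte nuclei and 6.75% and 12.0% in the shallower endothelial nuclei, so the order in KO was the other way. Endothelial cells are themselves known to use Cpt1a, so these shares cannot tell whether adipocyte nuclei held Cpt1a of their own.

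The same enzymes were next compared in classes in which the Adipoq promoter is not known to be active. The differences between WT and KO were not limited to adipocyte nuclei. In endothelial nuclei, 7 of 10 members were at least 2-fold lower in KO, beside 12.8% of 10407 genes, 9 were lower at any size, beside 53.3%, and none was at least 2-fold higher, beside 3.07%. The members' median log2 ratio there was −1.32, against −0.04 over all genes. In ASPC nuclei, 4 members were at least 2-fold lower, beside 10.2% of genes, and Cpt1a was at least 2-fold higher, beside 4.95%. At any size 9 were lower there, beside 52.1%. In immune nuclei, 4 were at least 2-fold lower, beside 11% of genes, and in mural nuclei 5 of the 9 with enough UMIs, beside 9.22%. None was at least 2-fold higher in either, beside 6.68% and 3.6%. At any size, 9 were lower in immune nuclei, beside 51.4%, and 8 of 9 in mural nuclei, beside 47.2%. The medians were −0.96 in ASPC, −0.89 in immune and −1.01 in mural nuclei. In Schwann nuclei, 59 in WT and 21 in KO, 6 members had enough UMIs and all 6 were at least 2-fold lower, beside 14.1%. In muscle nuclei, 28 and 15, 3 members had enough UMIs, with 1 at least 2-fold lower, beside 15.8%.

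Acadvl had the lowest ratio of the members in endothelial, immune and ASPC nuclei. It was at 91.6 CPM in WT and 9.52 in KO endothelial nuclei, a log2 ratio of −3.27 (−3.92 to −2.68), and its log2 ratios were −2.81 in immune, −2.42 in ASPC and −1.87 in mural nuclei, where Cpt1b was as low at −1.85. Acadm was at 255 and 55.5 CPM in endothelial nuclei, a log2 ratio of −2.20 (−2.46 to −1.95). Acsl1 was at 542 and 175 CPM there, a log2 ratio of −1.63 (−1.78 to −1.49), where the adipocyte ratio was −0.36. Acsl5 went the other way, with −0.57 (−0.91 to −0.25) in endothelial nuclei against −1.80 in adipocyte nuclei.

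Cpt1a was higher in KO in each of these classes, by a log2 ratio of 1.19 (0.82 to 1.58) in ASPC nuclei, 0.87 (0.53 to 1.21) in endothelial nuclei and 0.54 (0.37 to 0.71) in nuclei of immune cells. In mural nuclei its ratio of 0.21 (−0.60 to 1.00) could not be told from 0 at this depth. Cpt2 was nearly level in ASPC nuclei, at −0.13 (−0.60 to 0.36), and in mural nuclei, at −0.02 (−0.81 to 0.73).

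**Figure D2:**
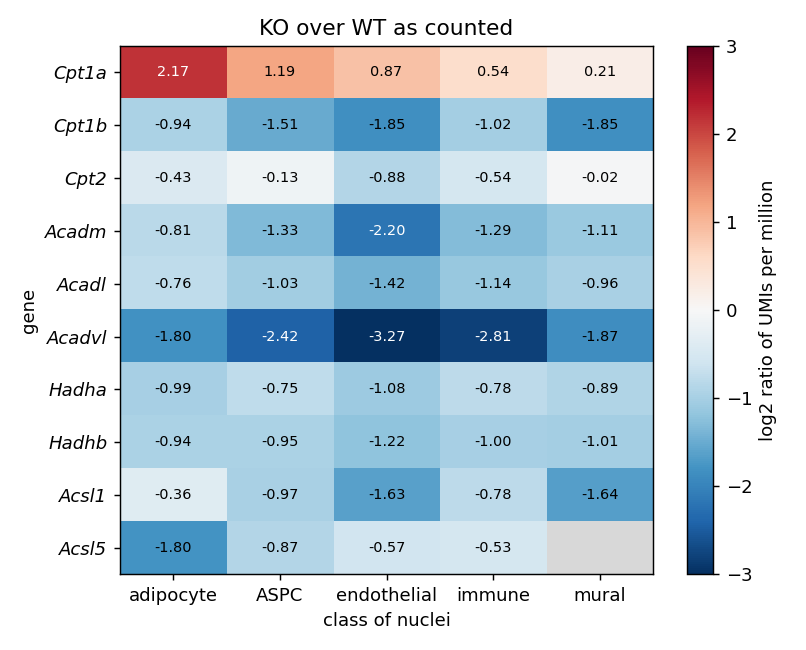
Log2 ratio of KO to WT, as counted, for each enzyme (rows) in 5 classes of nuclei (columns); blue is lower and red higher in KO, and grey marks fewer than 50 UMIs over both libraries. Cpt1a is red from 2.17 in adipocyte to 0.21 in mural nuclei, and Acadvl has the deepest blue, −3.27 in endothelial nuclei.

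RNA of Ucp1 and of the adipocyte markers was also seen in the other classes, and it too differed between the libraries. Ucp1 was at 1729 CPM in WT and 59.6 in KO adipocyte nuclei, and at 652 and 16.3 CPM in endothelial nuclei. As a percentage of its adipocyte level, the endothelial level of Ucp1 was 37.7% in WT and 27.3% in KO. The 8 adipocyte markers ranged from 9.90% (Tshr) to 56.3% (Adipoq) in WT and from 5.02% (Plin4) to 63.7% (Pparg) in KO. Cpt1b stood at 25.0% and 13.4%, and Acsl1 at 15.9% and 6.60%, within the range of the markers in both libraries. In KO the next marker after Pparg was Lipe at 20.4%. Acadm was at 46.9% and 17.9%. Hadha, at 38.7% and 36.2%, Hadhb, at 41.6% and 34.4%, Acadl, at 54.2% and 34.4%, and Cpt2, at 44.3% and 32.4%, lay in KO above each marker but Pparg. Acadvl, at 102% and 36.9%, Acsl5, at 75.7% and 177%, and Cpt1a, at 318% and 129%, were above all 8 markers in WT. Adipocyte nuclei held 60.3% of the UMIs of the kept WT nuclei and 20.4% of those of KO. How much of the endothelial counts was free adipocyte RNA was not tested.

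The adipocyte level was therefore also taken relative to the endothelial level of the same library. On this scale 9 of the 10 enzymes were higher in KO and Acsl5 alone was lower, so that the direction of 8 members turned. The same holds for 60.5% of the 10301 genes with enough UMIs, which were higher in KO relative to endothelial nuclei, and the median over all genes was 0.17. The median log2 ratio of ratios was 0.78 over the members, with 4 members at least 2-fold higher, beside 14.3% of genes, and 1 at least 2-fold lower, beside 6.37%.

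Within each library, 6 of 10 members were at least 2-fold higher in adipocyte than in endothelial nuclei in WT, beside 18.8% of genes, and 8 of 10 in KO, beside 27.1%. At least 2-fold lower were 1 member (Cpt1a) in WT, beside 20.4%, and none in KO, beside 15.6%. Acsl1 was 6.28 times its endothelial level in WT and 15.1 times in KO, a log2 ratio of ratios of 1.27 (1.13 to 1.42). Cpt1b was 3.99 and 7.45 times its endothelial level, with 0.90 (0.53 to 1.27). Acadm was 2.13 and 5.59 times, with 1.39 (1.14 to 1.64), and Acadl 1.84 and 2.91 times, with 0.66 (0.46 to 0.86). For these enzymes the endothelial level differed more between the libraries than the adipocyte level did. The sizes depended on how nuclei were classed and on the class set beside them. For Cpt1b the value was 0.076 with nuclei classed by their cluster and 0.071 against immune nuclei, so little of it was left. Acsl1 went to 0.35 and 0.41, Acadm to 0.64 and 0.48, and Acadl to 0.36 and 0.38.

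Acadvl was no higher in WT adipocyte than in WT endothelial nuclei, at 0.984 times, and was 2.71 times the endothelial level in KO. Hadha, at 2.58 and 2.76 times, and Cpt2, at 2.26 and 3.09 times, had intervals of the ratio of ratios that hold 0, at 0.10 (−0.09 to 0.28) and 0.45 (−0.03 to 0.93). Hadhb was close to Hadha, at 2.40 and 2.91 times and 0.28 (0.08 to 0.47), which became 0.047 with nuclei classed by their cluster and 0.056 against immune nuclei. For Hadha, 3 of the alternatives turned the sign. With nuclei classed by their cluster its log2 ratio of ratios was −0.32, with a stricter margin between marker sums −0.075, and against immune nuclei −0.21.

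Acsl5 was the exception among the members. It was 1.32 times its endothelial level in WT and 0.564 times in KO, a log2 ratio of ratios of −1.23 (−1.59 to −0.87). Cpt1a was below its endothelial level in both libraries, 0.314 times in WT and 0.774 times in KO.

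Subtracting the endothelial level in place of dividing by it gave a value between these. For 7 enzymes both differences were above 0, and the KO difference was between 52.5% (Hadha) and 90.4% (Cpt2) of the WT difference. Cpt1b was at 60.0%, Hadhb at 58.6%, Acadl at 84.6%, Acsl1 at 86.4% and Acadm at 88.2%. After subtraction all 7 thus had a lower value in KO, by the least for Cpt2, whose differences of 42.1 (36.7 to 47.6) and 38.1 (31.6 to 44.6) CPM have overlapping intervals. No share over all genes was computed after subtraction. Cpt1a, Acadvl and Acsl5 gave a difference below 0 in at least 1 library and have no such value.

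**Figure D3:**
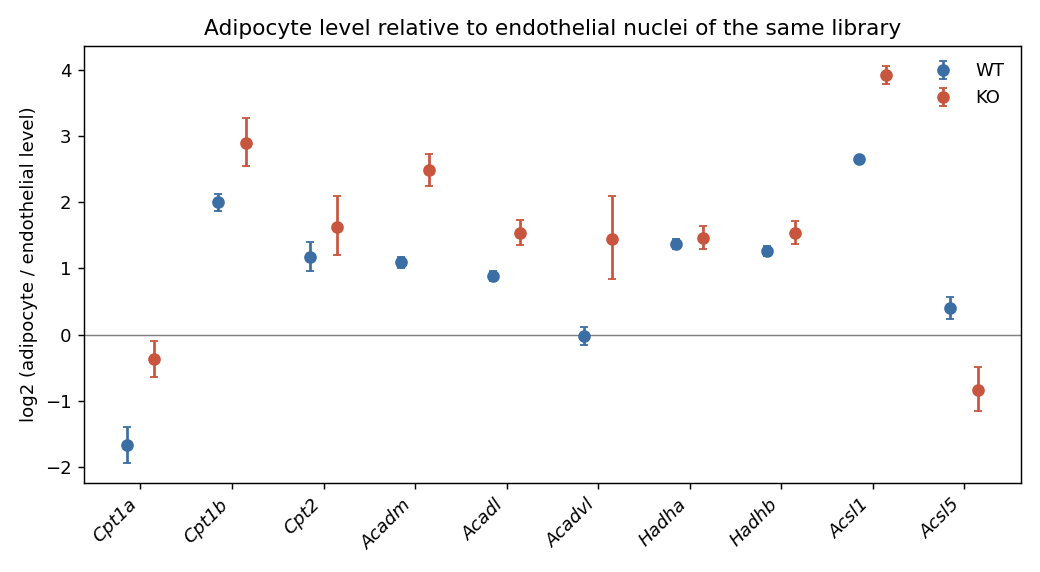
Log2 of the adipocyte level over the endothelial level of the same library for each enzyme, WT blue and KO red, with exact 95% counting intervals and a line at 0 where the levels are equal. KO lies above WT for 9 enzymes, closest for Hadha (2.58 and 2.76 times), and Acsl5 is the 1 gene where KO lies below WT.

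The 2 CPT1 genes were set against each other within each class, since their ratio in a nucleus does not depend on its total count. UMIs are counted at the transcript's end, so the share is compared between classes and libraries and is not a ratio of enzyme amounts. Cpt1a made up 2.37% (2.16 to 2.60) of the Cpt1a and Cpt1b UMIs of WT adipocyte nuclei and 17.4% (16.2 to 18.7) of those of KO. It made up 35.2% and 77.8% in ASPC nuclei, 23.6% and 67.0% in endothelial nuclei, and 57.7% and 80.0% in immune nuclei. The share was thus lowest in adipocyte nuclei and higher in KO in each of these classes. In mural nuclei it was 22.2% (15.9 to 29.6) and 54.3% (39.0 to 69.1). Immune-marker UMIs in adipocyte nuclei were also higher in KO, and Cpt1a was at 109 CPM in WT and 159 in KO immune nuclei. The part of this in the adipocyte share was not tested. The endothelial share also reflects Cpt1b, which was at 94.0 CPM in WT and 26.2 in KO endothelial nuclei. How much of that Cpt1b was free adipocyte RNA was not tested.

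**Figure D4:**
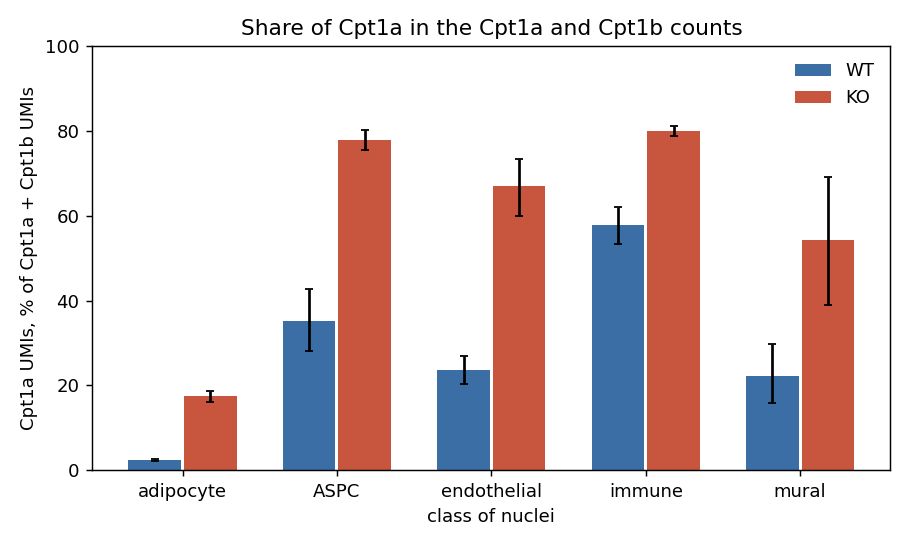
Cpt1a UMIs as a percentage of the Cpt1a and Cpt1b UMIs of each class, WT blue and KO red, with exact 95% binomial intervals. Adipocyte nuclei have the lowest share in both libraries, 2.37% and 17.4%, and KO is above WT in all 5 classes.

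Taken over all adipocyte nuclei, the subunits of the trifunctional protein had nearly the same ratio in both libraries. Hadha made up 51.7% (51.3 to 52.1) of the Hadha and Hadhb UMIs of WT adipocyte nuclei and 50.9% (49.9 to 51.9) of KO. In the other well-counted classes the share was between 45.3%, in WT mural nuclei, and 55.1%, in KO immune nuclei. Among the adipocyte subclusters described below the ratio was not kept. WT subcluster 5 over WT subcluster 1 gave a log2 ratio of 0.44 (0.40 to 0.49) for Hadha and 0.74 (0.70 to 0.79) for Hadhb. Acadl made up 47.1% of the Acadl and Acadm UMIs of WT adipocyte nuclei and 48.0% of KO, whereas in endothelial nuclei its share was 50.8% in WT and 63.9% in KO. Acsl5 made up 2.28% (2.21 to 2.35) of the Acsl5 and Acsl1 UMIs of WT adipocyte nuclei and 0.854% (0.766 to 0.949) of KO, and 9.98% and 18.8% in endothelial nuclei.

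Adipocyte nuclei were clustered again, with the members kept out of the variable genes, to see how the enzymes varied among them. Subclusters of 1 library could be that library and not a type, and at most 29 nuclei of a subcluster came from the other library. WT gave subclusters 0 to 6 and KO subclusters 7 to 9. Subcluster 0 held 224 nuclei with 6 of 6 white markers at least 1.5 times as high as elsewhere and was called white-like, and subcluster 7 held 631 nuclei with 5 of 6 and was called white-like too. These were 4.42% (3.87 to 5.02) of the WT and 33.1% (31.0 to 35.3) of the KO adipocyte nuclei. Of the 8 brown markers, 1 was that high in subcluster 0 and 0 in subcluster 7. Ucp1 was at 666 CPM in subcluster 0 and 11.9 in subcluster 7, and Ppargc1a at 2116 and 201. The shared name therefore does not make the 2 alike. Subclusters 1, with 1639 nuclei, and 5, with 1403, had 5 of 8 brown markers and were called brown-like. Subcluster 8 held 1115 nuclei, the largest of KO, and had 0 of 8 brown and 1 of 6 white markers, so it was given no name. Subcluster 9 of KO, with 117 nuclei, also had 5 of 6 white markers and 0 of 8 brown, beside immune markers given below. It was not named and is not part of the 33.1%. Subcluster 6 of WT, with 290 nuclei, had 3 of 8 brown and 0 of 6 white markers and was not named either.

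In WT, Cpt1b, Acadl, Hadha and Hadhb were highest in brown-like subcluster 5, whose leading genes include Ppargc1a, the coactivator of mitochondrial biogenesis, and the stimulus-induced receptors Nr4a2 and Nr4a3. Cpt1b was at 509 CPM there and 363 in subcluster 1, Hadha at 839 and 618, Hadhb at 862 and 515, and Acadl at 618 and 462. The log2 differences were largest for Hadhb, 0.74 (0.70 to 0.79), and Cpt1b, 0.49 (0.43 to 0.55). Acadm went the other way by −0.16 (−0.21 to −0.11) and Acsl5 by −0.82 (−0.97 to −0.68). No member differed by 2-fold between these subclusters, and 3.28% of genes were at least 2-fold lower and 1.4% at least 2-fold higher. In white-like subcluster 0, Cpt1b was at 164 CPM, Hadha at 372 and Hadhb at 327, below both brown-like subclusters, while Acsl1, which also serves fat storage, was at 4097, above them.

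In KO, the unnamed subcluster 8 held Cpt1b at 313 CPM, Acadm at 406, Hadha at 451, Hadhb at 467 and Acsl1 at 2981. The white-like subcluster 7 held Cpt1b at 63.0, Acadm at 225, Hadha at 180, Hadhb at 153 and Acsl1 at 2398. The oxidation enzymes were thus not evenly low over the KO adipocyte nuclei. Subcluster 7 was below subcluster 8 by −2.31 (−2.48 to −2.15) for Cpt1b, −1.61 for Hadhb, −1.57 for Acadvl and −1.33 for Hadha, and these were the 4 of 10 members at least 2-fold lower, beside 5.23% of genes. None was at least 2-fold higher, beside 8.03%. Cpt2 was level between them, at 55.4 and 59.7 CPM and −0.11 (−0.32 to 0.11).

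Set against the brown-like WT subclusters, the largest KO subcluster was closer to WT than the whole class was by the members' median, but not for each member. Subcluster 8 against brown-like subcluster 1 gave a median log2 ratio of −0.31 over the members, with Hadhb at −0.14 (−0.20 to −0.08), Cpt1b at −0.21 (−0.29 to −0.14) and Acsl1 at −0.26 (−0.28 to −0.23). Acsl5, at −2.09 (−2.33 to −1.85), and Acadvl, at −1.38 (−1.58 to −1.19), were the 2 members at least 2-fold lower, beside 15.8% of genes. Cpt1a, at 33.5 against 5.43 CPM, was at least 2-fold higher, beside 17.2%, and its log2 ratio of 2.63, like that of Acsl5, was further from 0 than in the whole class. Against brown-like subcluster 5 the median was −0.72, and Acadvl and Acsl5 were again the 2 members at least 2-fold lower, beside 14.1%, and Cpt1a the 1 at least 2-fold higher, beside 21.2%.

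Between the white-like subclusters, which also differed in Ucp1 and Ppargc1a as given above, the differences were larger by their median. Subcluster 7 against subcluster 0 gave a median of −0.96, and 5 of 10 members were at least 2-fold lower, beside 11.9% of genes. They were Acadvl at −2.22, Acsl5 at −1.75, Cpt1b at −1.38, Hadhb at −1.09 and Hadha at −1.05. Cpt1a was at 41.1 CPM in subcluster 7 and 9.78 in subcluster 0, a log2 ratio of 2.07 (1.45 to 2.76), and 14.3% of genes were at least 2-fold higher. In each of these pairs 9 members were lower in KO and Cpt1a was higher, and Acadvl and Acsl5 were at least 2-fold lower each time. The share of all genes lower at any size was not computed for these pairs. Over all genes the median was 0.03 for subcluster 8 against subcluster 1 and 0.18 against subcluster 5. It was 0.09 for subcluster 7 against subcluster 0. The size varied with the nuclei set side by side, for Acadvl from −2.22 to −1.38, for Acsl5 from −2.09 to −1.26, for Cpt1b from −1.38 to −0.21 and for Hadha from −1.05 to −0.45. The share of Cpt1a in the CPT1 counts was 39.5% in subcluster 7 and 9.66% in subcluster 8, and 0.977% to 5.64% over the WT subclusters.

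Other subclusters carried signs of other cells or of depth. Subcluster 2 had a median of 1441 UMIs and 1.89% mitochondrial UMIs and was led by Myh4 and Ttn of muscle fibres, subcluster 3 had 1863 CPM of endothelial markers, and subcluster 4 had a median of 19612 UMIs. Subcluster 9, with 117 KO nuclei, had 1318 CPM of immune markers, was led by Atp6v0d2 and Mmp12 of macrophages, and held the highest Cpt1a, 61.3 CPM. Without subclusters 2, 3, 4 and 9, an alternative added after the data had been seen, the median of the members in adipocyte nuclei was −0.91, with 9 lower, and the log2 ratio of Cpt1a was 2.71.

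**Figure D5:**
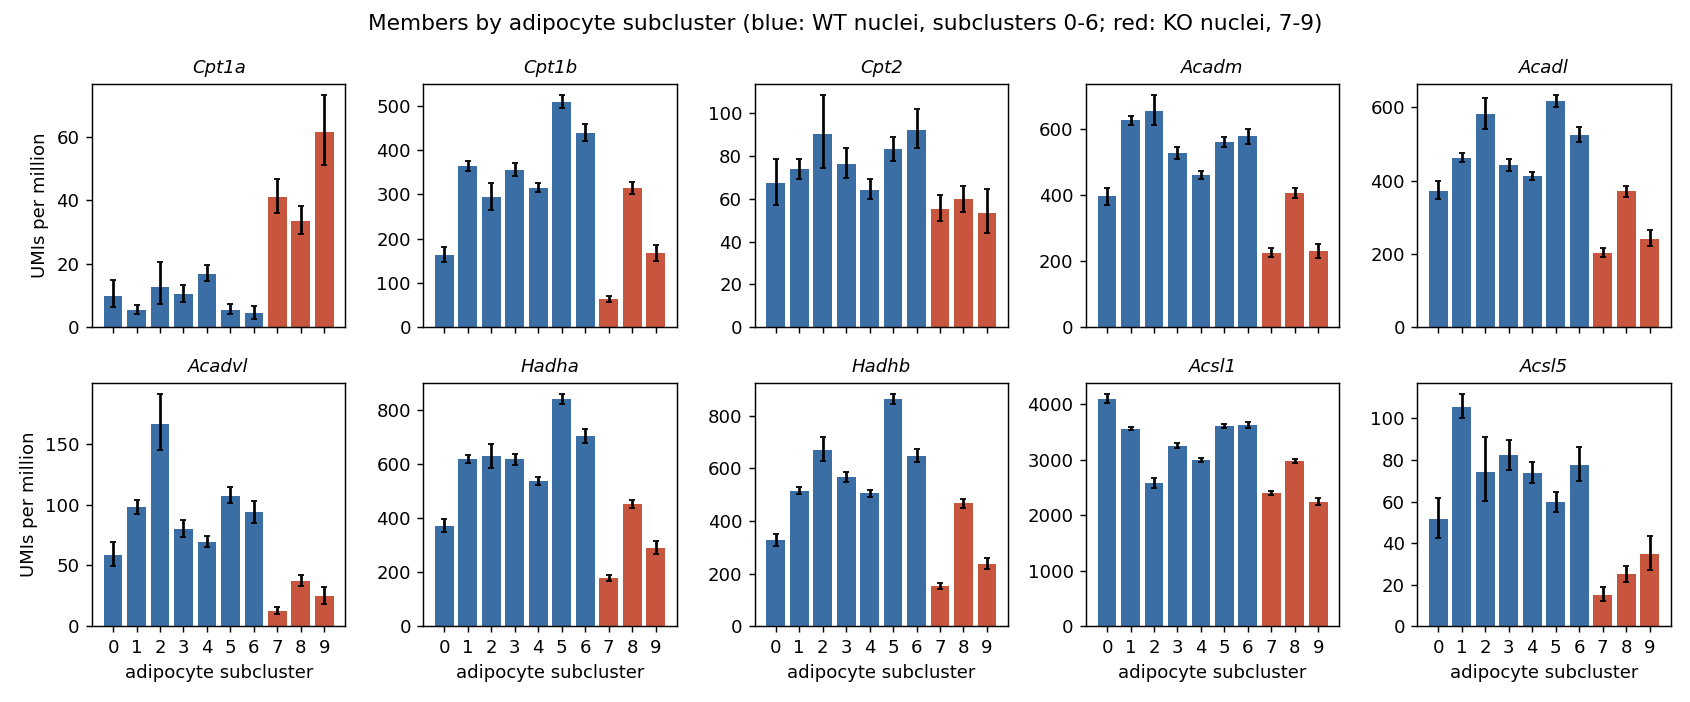
Level of each enzyme in CPM (bars from 0, each panel with its own scale) in the adipocyte subclusters, WT blue (0 to 6) and KO red (7 to 9), with exact 95% Poisson intervals. Cpt1b, Hadha and Hadhb peak in subcluster 5 and are lowest in subcluster 7, Acadvl is lowest in 7, and Cpt1a is above every WT subcluster in all 3 KO subclusters.

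Finally, 46 other genes of fatty acid oxidation were described in adipocyte nuclei, of which 45 had at least 50 UMIs and Acsl6 did not. Of these, 12 were at least 2-fold lower in KO, 5 at least 2-fold higher and 28 between, with a median log2 ratio of −0.46. The 12 are 8 enzymes, transporters or carriers and 4 genes of control, and the background is again 18.8% of all genes lower and 17.3% higher. Relative to endothelial nuclei, 44 could be compared. None was at least 2-fold lower, beside 6.37% of all genes on this scale, and 14 were at least 2-fold higher, beside 14.3%. The median was 0.65, against 0.17 over all genes. At any size 40 were higher and 4 lower on this scale, beside 60.5% of all genes higher. Each group had a median higher in KO there, from 0.41 for the carnitine shuttle to 1.15 for the mitochondrial spiral. The group values below are as counted unless stated, and their directions do not carry over to this scale.

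The electron transfer flavoprotein, which takes the electrons of the acyl-CoA dehydrogenases to the respiratory chain, had the lowest median of the groups, −1.36. Etfb was at 136 CPM in WT and 38.8 in KO, a log2 ratio of −1.81 (−1.94 to −1.69), whereas Etfa, its partner subunit, was level at 560 and 538 CPM, −0.06 (−0.09 to −0.02). This contrast was not seen relative to endothelial nuclei. There the log2 ratios of ratios were 0.60 (0.17 to 1.04) for Etfb and 0.66 (0.48 to 0.84) for Etfa. Control genes had a median of −0.89. Ppargc1a was at 5004 and 503 CPM, a log2 ratio of −3.31, and Ppard, a PPAR receptor, was at the other end with 0.98.

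The carnitine shuttle had a median of −0.59, from Slc25a20, the carnitine-acylcarnitine carrier, at −0.86 to Crot, the peroxisomal carnitine octanoyltransferase, at 0.32. In the rest of the mitochondrial spiral the median was −0.44, from Acaa2, a thiolase, at −1.27 to Echs1, the short-chain hydratase, at 0.11 (−0.0026 to 0.23). Auxiliary enzymes had a median of −0.58, from Acad11 at −1.47 to Eci2, an enoyl-CoA isomerase, at 0.54.

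The groups for activation, peroxisomes and thioesterases had medians near or above 0. Activation enzymes had a median of 0.58 and the widest range, from Slc27a2, a very-long-chain synthetase and transporter at 242 CPM in WT and 7.24 in KO, at −5.06, to Acsf2 at 2.02. Peroxisomal genes had a median of 0.28, from Abcd3 at −1.23 to Abcd2 at 2.46, both transporters of the peroxisomal membrane. Of the 9, 7 were higher in KO and 2 were lower, beside 48.9% of all genes lower. Thioesterases had a median of −0.01, from Acot11 at −0.27 to Acot2 at 1.08.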

How the data were processed

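The 2 libraries hold UMI counts of each gene in each nucleus as the authors deposited them, aligned to GRCm38 with STAR and counted with Cell Ranger (version 5.0.0 in the submitters' processing notes, an earlier one in the study's methods), with no normalization in the values. The methods also name a down-sampling step across samples, which cannot be checked from the counts. The sources used here do not say if intronic reads or the strand entered the counts. Nuclei with at least 200 genes, within 3 median absolute deviations for UMIs and genes, and with at most 10% mitochondrial UMIs were kept, 12771 in WT and 11378 in KO.

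Marker sums in CPM were divided by a level for each class, 5000 for adipocyte, 2500 for ASPC, 4000 for endothelial, 3000 for immune, 1500 for mural, 1200 for Schwann and 5000 for muscle nuclei. The highest sum named the nucleus where it reached its level, held at least 8 UMIs and was at least 2 times the next, or 4 times under the stricter margin. The levels were set after the sums had been seen, and the members and gene lists were chosen with earlier results of these data known. Scrublet called no doublet in WT and 21.0% of the kept KO nuclei, so nuclei with mixed sums were left unclassed instead.

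UMIs were summed per library and class. The 95% intervals are exact Poisson for levels, exact conditional for ratios, exact (Clopper-Pearson) binomial for shares and on the log scale for ratios of ratios. Genes named are the members, Srsf1, markers, genes that overlap a member and the extremes of each group of the pathway list, and leading genes of subclusters were named after they were seen. Subclusters used resolution 0.5, 2000 variable genes, 30 components and 15 neighbours (scanpy 1.11.5, Python 3.11.15). Genes were placed with the GENCODE annotation. Other assays of the study were not analysed here. The genes most similar to Cpt1b are not reported here.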

Additional observations from a re-analysis of the deposited data

How the results depend on the processing

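Each value comes from 1 library per genotype, so no spread between animals is known. No paired analysis was possible because each genotype has 1 library. In adipocyte nuclei as counted, 9 of 10 members were lower in KO under all 11 alternatives that gave a value for each member. The median of −0.87 became −0.82 with no filter on nuclei, −0.79 without Plin4 and Tshr among the markers (chosen after seeing the data, since both markers were higher in KO adipocyte nuclei), −0.82 as the mean over nuclei and −0.24 over the 7 members left after endothelial subtraction. Relative to endothelial nuclei, the median of 0.78 became 0.34 with classes by cluster, 0.24 against immune nuclei and 0.35 against unclassed nuclei. Of 90 member values, 3 changed sign, all of Hadha, to −0.32 with classes by cluster, −0.075 with the stricter margin and −0.21 against immune nuclei. With the stricter margin, the median became −1.21 in ASPC (from −0.96) and −1.13 in immune nuclei (from −0.89). The 12 pathway genes at least 2-fold lower became 20 at 1.5-fold, for which no share over all genes was computed. Relative to endothelial nuclei they became 0, beside 6.37% of all genes. The median log2 ratio of the shares of nuclei was −0.79 thinned and −0.38 not thinned. The cause of these shifts was not tested. The median of subcluster 8 against subcluster 1 stayed at −0.31 with members kept among the variable genes and at a resolution of 1. Schwann and muscle nuclei, at most 59 in a library, allow little to be read.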

Other observations

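The genes whose log2 level across the 14 pairs of class and library was most like that of the 10 enzymes summed include genes of fat and glycogen synthesis. They were Dgat2, which makes triglyceride from diacylglycerol, with r = 0.97, Gpam, which starts glycerolipid synthesis, with 0.96, Aifm2 with 0.96, Gbe1, the glycogen branching enzyme, with 0.96, and Fam126b with 0.96. These correlations are over 14 points out of 11327 candidate genes, and the points share libraries. Acsl1 gave 163008 of the 301572 UMIs of the 10 enzymes in WT adipocyte nuclei and 39495 of the 62928 in KO, so the sum is mostly Acsl1.

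In nuclei that took no class, Cpt1a was at 25.0 CPM in WT and 85.9 in KO, Acadvl at 95.4 and 18.2, and Hadha at 481 and 205. These nuclei had medians of 1230 and 3488 UMIs.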
